A study of Mus musculus with 8 samples.

Results

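The 8 genes described here encode calmodulin (Calm2 and Calm3), the calmodulin-binding protein neurogranin (Nrgn) and proteins that move calcium in platelets or respond to it (Stim1, Orai1, Atp2a3, Itpr2 and Ano6). They were taken by symbol from an RNA sequencing table of mouse platelets with 43548 entries, and each symbol named 1 entry. Washed platelets came from 4 TNFdARE mice (genotype label TNFdAre +), a model of lasting TNF-α excess with joint and bowel inflammation, and from 4 littermate controls (TNFdAre -), whose library names begin with B6. All 8 mice were sampled at baseline, without treatment, at 8 to 12 weeks of age, and each group held 2 females and 2 males. A single batch date was given for all 8 libraries. The allele is carried in the germline, so TNF-α acting on platelets and TNF-α acting on megakaryocytes or other tissues cannot be told apart in this design. The labels differ among themselves in places: one field gives 3 mice per group, another describes older male mice and humeri, and sex stands under a cell line heading. The groups used here follow the genotype, title and sex labels.

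When a platelet is activated, phospholipase C makes inositol trisphosphate, which opens receptor channels in the dense tubular system and releases stored calcium. STIM1 senses the emptied store and opens ORAI1 in the plasma membrane, and the SERCA3 pump encoded by Atp2a3 returns calcium to the store. Calmodulin binds the calcium and switches on enzymes such as myosin light chain kinase, neurogranin binds calmodulin when calcium is low, and at high calcium the scramblase TMEM16F, encoded by Ano6, exposes phosphatidylserine. Neurogranin is best known from neurons, and its transcript is also abundant in platelets.

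In both genotypes Nrgn was by far the most abundant of the 8 transcripts, Atp2a3 followed, and the other 6 were low and unevenly detected. Of the 8 genes, 6 entered the test between TNFdARE and control platelets, and none passed, as none of all 1534 tested genes did. Itpr2 and Ano6 were too low to enter it. In the fit to all 8 mice Calm3 and Orai1 had the lowest point estimates in TNFdARE platelets, but this order changed with the mice included and the pseudocount: without TNFdARE mouse 1, Calm2 was lowest at -1.45 on the log2 scale, against -1.09 for Orai1 and -1.07 for Calm3. Atp2a3 varied less from mouse to mouse than most tested genes of like level.

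Calmodulin and neurogranin are shown first as sequence, because Calm2 and Calm3 can be told apart only by their bases. Each has a coding sequence of 450 bases, and they encode the same protein of 149 residues, with 0 differing residues. At the base level they differed at 78 of 450 positions (82.7% identical), and 74 of these were at the third base of a codon. The longest stretch without a difference between Calm2 and Calm3 was 17 bases, so a read of 150 bases inside the coding region spans differences between them. The first 120 coding bases of each gene, from the GRCm38 transcripts of GENCODE release 21, follow from 5′ to 3′, and capitals mark the 18 positions at which they differ.
Calm2: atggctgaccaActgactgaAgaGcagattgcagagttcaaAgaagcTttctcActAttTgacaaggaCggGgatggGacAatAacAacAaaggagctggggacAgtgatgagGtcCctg
Calm3: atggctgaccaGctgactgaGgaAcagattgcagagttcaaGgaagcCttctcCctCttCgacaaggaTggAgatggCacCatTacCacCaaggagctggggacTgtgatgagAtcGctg

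The whole coding sequence of Nrgn is 237 bases and encodes 78 residues. It is shown because neurogranin holds calmodulin through its IQ motif, whose core is found 1 time in the translated protein, at residues 33 to 43. Capitals mark the bases that encode it, 97 to 129.
Nrgn: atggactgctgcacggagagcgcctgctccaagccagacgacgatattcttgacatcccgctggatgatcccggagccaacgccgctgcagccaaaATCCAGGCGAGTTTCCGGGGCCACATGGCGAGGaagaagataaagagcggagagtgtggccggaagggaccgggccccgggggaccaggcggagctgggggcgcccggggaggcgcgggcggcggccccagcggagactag

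The libraries differed widely in how many genes they detected, and detection of the 8 genes moved with it. Between 818 and 4917 genes were listed above 0 in a library, and a single entry, AY036118, took 33.7 to 67.7% of the summed FPKM (fragments per kilobase of transcript, scaled to library size). The fewest genes were listed in TNFdARE mouse 1 (818), TNFdARE mouse 4 (1225) and control mouse 1 (1479). All 8 members were above 0 in the other 5 libraries, whereas 4 were above 0 in TNFdARE mouse 1, 3 in TNFdARE mouse 4 and 6 in control mouse 1. Over the 1534 genes tested, 58.3%, 43.0% and 36.1% were listed at 0 in these 3 libraries, against 6.98 to 25.4% in the other 5. A value of 0 can be a failed estimate, and at least 1 of 20 platelet markers was itself listed at 0 in control mouse 2, control mouse 3, TNFdARE mouse 1 and TNFdARE mouse 4. A member at 0 is therefore described only as listed at 0.

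**Figure D1:**
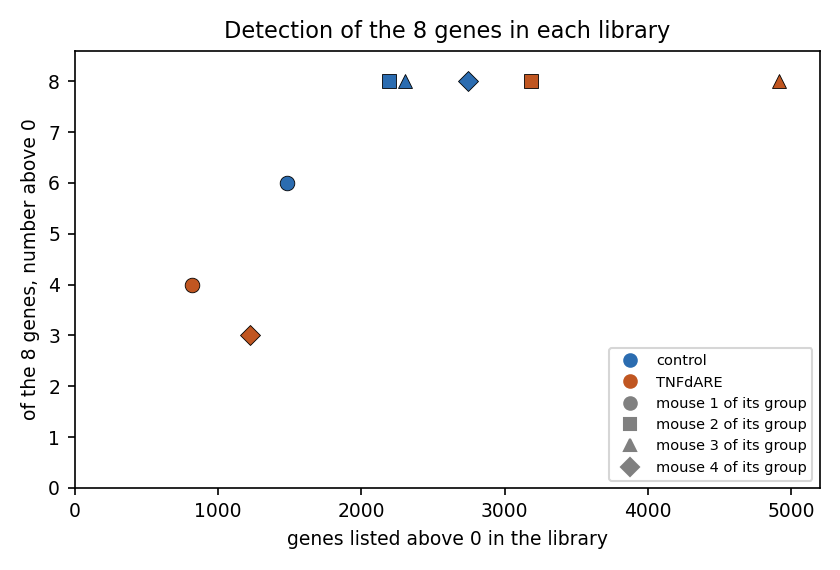
Number of the 8 genes listed above 0 (vertical axis) against the number of all genes listed above 0 (horizontal axis) in each library. Points are single mice, colour gives the genotype and shape the mouse. The 3 libraries with the fewest genes held 3, 4 and 6 of the 8, and the other 5 held all 8.

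All 20 platelet and megakaryocyte markers, Nrgn among them, were detected and tested, with a summed level of 1353 to 1835 FPKM in controls and 1240 to 1409 FPKM in TNFdARE mice. Erythroid markers summed to 798 to 2239 FPKM in controls and 1146 to 14737 FPKM in TNFdARE mice, above the platelet markers in 4 of 8 libraries (control mouse 3 and TNFdARE mice 1, 3 and 4). The highest sums were in TNFdARE mouse 4 (14737 FPKM) and TNFdARE mouse 1 (6990 FPKM), which are also the libraries with the fewest genes above 0. Of the 11 tested erythroid genes, 6 were higher in TNFdARE mice at an unadjusted limma p under 0.05. Over all tested genes 4.5% passed that threshold in either direction. The 6 include the globin genes Hba-a1, Hba-a2, Hbb-bs and Hbb-bt, and 0 passed after Benjamini-Hochberg adjustment (limma, adjusted p = 0.86 for each). Neutrophil markers summed to at most 10.3 FPKM and T cell markers to at most 1.5 FPKM in any library. B cell markers summed to 0 to 37.9 FPKM in controls and 0.129 to 14.4 FPKM in TNFdARE mice, mainly Igkc and Cd74, with Cd79a, Cd79b and Ms4a1 listed at 0 in all 8 libraries. Monocyte and macrophage markers reached 55.3 FPKM, most of it Lyz2. The neuronal markers Snap25, Rbfox3, Map2, Camk2a, Nefl and Gap43 were listed at 0 in all 8 libraries. Syn1, another neuronal marker, was listed at 0.139 FPKM in control mouse 1, 0.18 FPKM in control mouse 4 and 0 in the others. The neuronal marker Tubb3 was not matched to an entry. The part of erythroid RNA in the differences below was not tested. In bulk RNA, fewer cells of a type and less RNA per cell cannot be told apart.

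Nrgn, at chr9:37544492-37552904 on the minus strand of GRCm38, was read at 235, 260.5, 428 and 237 FPKM in control mice 1 to 4. In TNFdARE mice 1 to 4 it was 76.2, 221, 237 and 314 FPKM. The groups overlapped: control mouse 3 was the highest, TNFdARE mouse 1 the lowest, and the other 6 mice lay between 221 and 314 FPKM. It ranked between the 16th and the 26th most abundant gene in every library except TNFdARE mouse 1, where it was the 59th. Apart from AY036118 it made up 0.237% of the summed FPKM in TNFdARE mouse 1 and 0.695 to 1.17% in the others. The mean was 290.1 ± 92.5 FPKM in controls and 212 ± 99.2 FPKM in TNFdARE mice (SD, n = 4 each). On the log2(FPKM + 1) scale used for every test, the difference, TNFdARE minus control, was -0.57 (SE 0.46, 95% interval -1.56 to 0.41), and limma with Benjamini-Hochberg adjustment over all 1534 tested genes gave an adjusted p of 0.86. Most of this came from TNFdARE mouse 1, without which the difference was -0.14. Leaving out control mouse 3 gave -0.37. Of the 19 platelet markers other than Nrgn, 3 were listed at 0 in TNFdARE mouse 1 and 3 had their sole lowest value there, against 5 with their sole lowest value in TNFdARE mouse 4, where Nrgn was high. Compared with the range of the 4 controls, 7 of these 19 markers were below it, 10 within it and 2 above it in TNFdARE mouse 1. In TNFdARE mouse 4 also 7 were below it, with 8 within it and 4 above it. In TNFdARE mouse 1 the tubulin gene Tubb1 was below it (24.4 against 88.2 to 169 FPKM), as was the integrin gene Itga2b (41.5 against 57.6 to 91.4 FPKM), whereas Pf4, which encodes platelet factor 4, was within it (434 against 195 to 472 FPKM). The same held in TNFdARE mouse 4, at 39.0 FPKM for Tubb1, 41.4 FPKM for Itga2b and 423 FPKM for Pf4.

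Calm3, at chr7:16915379-16924114 on the minus strand, was read at 21.6, 1.59, 17.2 and 7.17 FPKM in control mice 1 to 4. In TNFdARE mice 1 to 4 it was 0, 4.78, 2.83 and 3.44 FPKM. All 4 TNFdARE mice were below the control median of 12.2 FPKM, but control mouse 2 was lower than 3 of them, so the groups overlapped. The log2 difference was -1.62 (SE 0.83, 95% interval -3.41 to 0.17), with an unadjusted p of 0.073 and an adjusted p of 0.86 by limma with Benjamini-Hochberg adjustment. The exact permutation test of this gene alone gave a two-sided p of 0.17, where 4 against 4 mice can reach 0.029. Single libraries moved the value in both directions. Without control mouse 2 the difference was -2.25, with an unadjusted limma p of 0.019 and groups that no longer overlapped, and without TNFdARE mouse 1, where Calm3 was listed at 0, it was -1.07 with an unadjusted limma p of 0.19. With both TNFdARE libraries with the fewest genes left out, a comparison chosen after the data were seen, it was -1.04. The adjusted p stayed above 0.05 in each of these fits.

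Calm2, at chr17:87433412-87446935 on the minus strand, was read at 9.95, 3.29, 2.26 and 2.19 FPKM in control mice 1 to 4. In TNFdARE mice 1 to 4 it was 12.9, 0.519, 2.35 and 0 FPKM. The highest and the lowest values were both in TNFdARE mice, and the controls fell between them. On the log2 scale Calm2 differed by -0.70 (SE 0.87, 95% interval -2.57 to 1.18; limma, Benjamini-Hochberg adjusted p = 0.87). Leaving out 1 mouse at a time moved it between -1.45, without TNFdARE mouse 1, and -0.19, without TNFdARE mouse 4, where Calm2 was listed at 0, and it was -0.29 without control mouse 1 and -0.39 without TNFdARE mouse 2. The level of Calm2 is uncertain because the processed pseudogenes Gm7308 (96.9% identical over 447 bases) and Gm15720 (98.2% over 276 bases) could take part of its fragments. Gm7308 was read at 11.6 FPKM in control mouse 2 and 4.33 FPKM in TNFdARE mouse 3, Gm15720 at 11.02 FPKM in TNFdARE mouse 2 and 1.57 FPKM in TNFdARE mouse 3, and both were listed at 0 elsewhere. No entry in the table met the same limits of similarity with Calm3.

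Calm2 and Calm3 together came to 31.6, 4.89, 19.5 and 9.36 FPKM in control mice 1 to 4 and to 12.9, 5.29, 5.18 and 3.44 FPKM in TNFdARE mice 1 to 4. Control mice 1 and 3 stood above the other 6, and the groups overlapped. The make-up of the sum varied as well as its size. Calm3 gave 68.5, 32.6, 88.4 and 76.6% of it in controls and 0, 90.2, 54.7 and 100% in TNFdARE mice, and in TNFdARE mouse 1 the whole sum was Calm2. Nrgn exceeded the sum in every library, by 7.45 to 53.3 times in controls and by 5.91 to 91.4 times in TNFdARE mice.

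**Figure D2:**
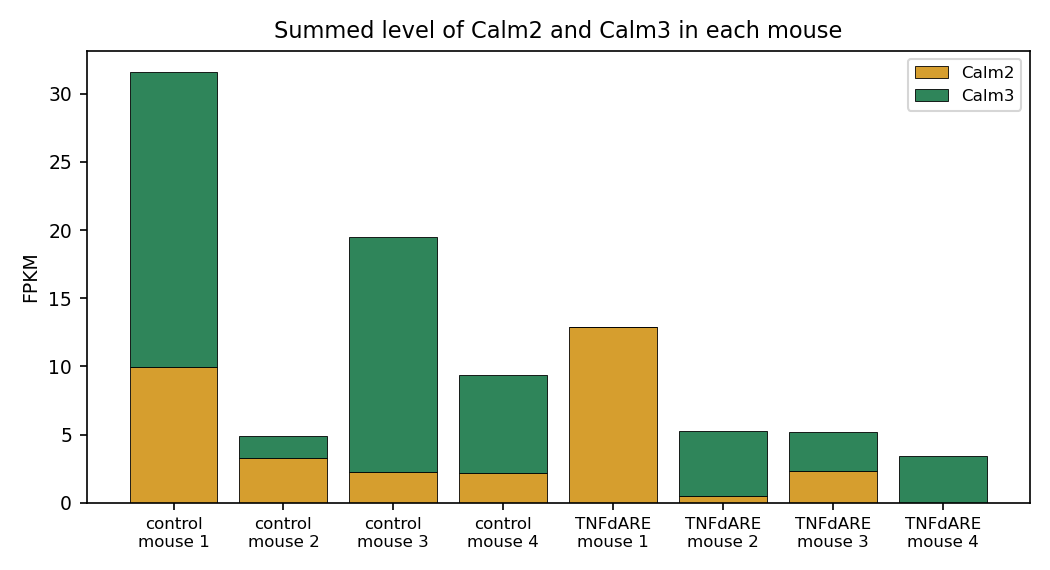
Stacked bars give the FPKM of Calm2 and Calm3 in each mouse, on a linear axis from 0. The sum reached 31.6 and 19.5 FPKM in control mice 1 and 3 and lay between 3.44 and 12.9 FPKM in the other 6 mice, and TNFdARE mice 1 and 4 each held only 1 of the 2 genes.

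Stim1, the calcium sensor of the store membrane, lies at chr7:102267806-102437319 on the plus strand. It was read at 1.16, 3.08, 1.90 and 2.74 FPKM in control mice 1 to 4 and at 3.14, 2.78, 3.59 and 0 FPKM in TNFdARE mice 1 to 4. The 3 TNFdARE mice in which it was above 0 were above the control median of 2.32 FPKM, and the fourth was listed at 0. The log2 difference was -0.10 (SE 0.72, 95% interval -1.65 to 1.44; limma, Benjamini-Hochberg adjusted p = 0.99). Its sign rested on single libraries: without TNFdARE mouse 4 it was 0.41, and without control mouse 2 it was 0.02.

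Orai1, the pore of the store-operated channel, lies at chr5:123015074-123030456 on the plus strand. It was read at 0, 4.34, 3.90 and 3.57 FPKM in control mice 1 to 4 and at 0, 0.537, 1.46 and 0 FPKM in TNFdARE mice 1 to 4. Apart from control mouse 1, where it was listed at 0, all controls were above all TNFdARE mice. The log2 difference was -1.24 (SE 0.76, 95% interval -2.89 to 0.40; limma, Benjamini-Hochberg adjusted p = 0.86), with an unadjusted p of 0.13 and an exact permutation p of 0.14. Without control mouse 1 the difference was -1.82 with an unadjusted limma p of 0.025, and the adjusted p still missed the threshold. Both TNFdARE libraries at 0 were those with the fewest genes detected, and with both left out the difference was -0.76 with an unadjusted limma p of 0.42. The antisense gene Gm2479 overlaps the span of Orai1. Reads from any shared exon could not be told apart without strand, but overlap of exons was not examined.

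Atp2a3, at chr11:72961169-72993044 on the plus strand, encodes the SERCA3 pump of the platelet store. It was read at 33.8, 61.9, 49.4 and 38.5 FPKM in control mice 1 to 4 and at 32.2, 50.3, 55.0 and 38.6 FPKM in TNFdARE mice 1 to 4. The groups lay on top of each other, with means of 45.9 ± 12.5 FPKM in controls and 44.0 ± 10.5 FPKM in TNFdARE mice (SD, n = 4 each). TNFdARE minus control, the log2 difference was -0.05 (SE 0.44, 95% interval -1.01 to 0.90; limma, Benjamini-Hochberg adjusted p = 0.99), so a change of up to about 1 on the log2 scale in either direction lay within the interval. It ranked between the 77th and the 149th most abundant gene in every library, those with few genes included. Its standard deviation over the 8 mice was 0.34 on the log2 scale, and 3.70% of the 54 tested genes of like level varied less. Against tested genes of its own level, Stim1 (0.73, with 7.18% of 585 genes varying less) was also low in spread, whereas Nrgn (0.71) was above 72.7% of the 11 genes near it. Nrgn stood above Atp2a3 by 4.21 to 8.65 times in controls and by 2.37 to 8.14 times in TNFdARE mice. Atp2a2, which encodes the SERCA2 pump, was listed at 0 in all 8 libraries.

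Itpr2, an inositol trisphosphate receptor that releases calcium from the store, lies at chr6:146108299-146502223 on the minus strand. It was read at 0.729, 1.47, 0.728 and 0.670 FPKM in control mice 1 to 4 and at 0, 0.779, 0.803 and 0 FPKM in TNFdARE mice 1 to 4. TNFdARE mice 2 and 3 lay inside the control range, and the other two were listed at 0. Its mean of 0.647 FPKM was below the filter of 1 FPKM, so it was left out of the main limma fit. Without the filter, Itpr2 had an unadjusted limma p of 0.29. It differed by -0.48 on the log2 scale, with an exact permutation p of 0.29. Left with TNFdARE mice 2 and 3 only, again chosen after the data were seen, the difference was -0.06. The related receptors Itpr1 and Itpr3 were listed at 0 in all 8 libraries. Gm15720, the Calm2 pseudogene described above, lies inside Itpr2 on the same strand.

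Ano6, the calcium-activated scramblase, lies at chr15:95790843-95974751 on the plus strand and was the lowest of the 8. It was read at 0, 0.0430, 0.332 and 0.639 FPKM in control mice 1 to 4 and at 0, 0.0412, 0.566 and 0 FPKM in TNFdARE mice 1 to 4. The groups overlapped over nearly their whole range. With a mean of 0.203 FPKM it was also below the filter, and its log2 difference was -0.12 with an exact permutation p of 0.54. Ano6 overlaps 5 annotated genes on the other strand.

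**Figure D3:**
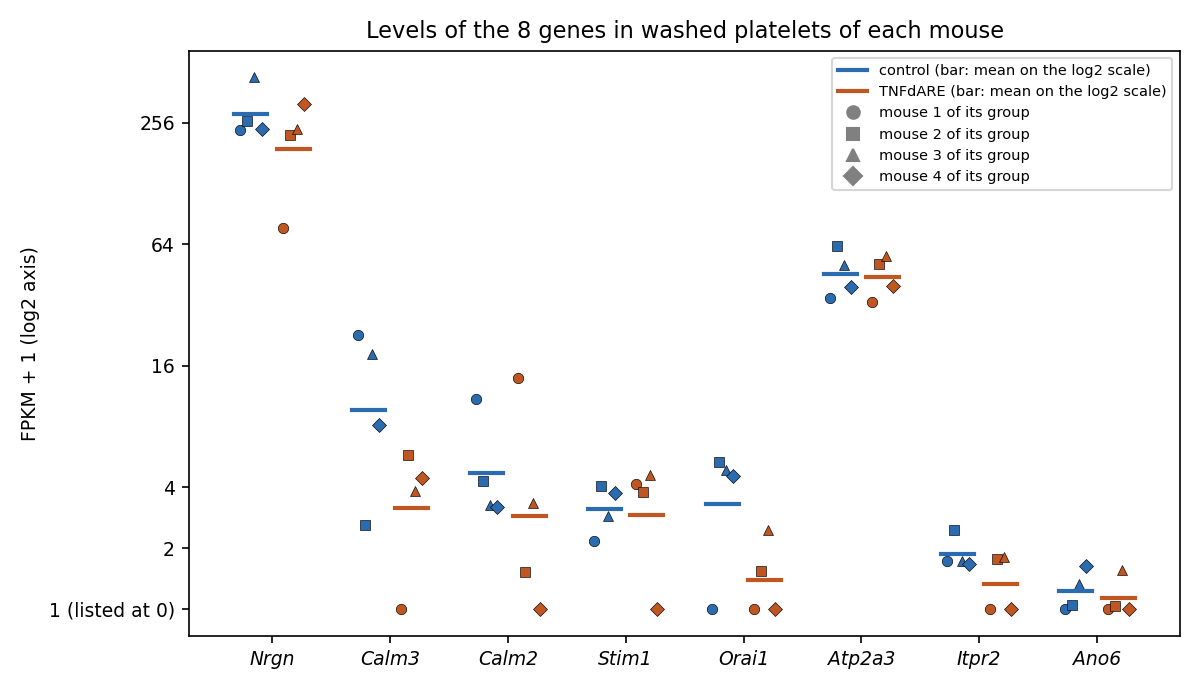
Each point is the level of a gene in 1 mouse, as FPKM + 1 on a log2 axis, with controls in blue and TNFdARE mice in orange, and bars mark the group means on the log2 scale (n = 4 each). Nrgn and Atp2a3 stand apart from the other 6 genes in every mouse, the groups overlap for all 8 genes, and points at 1 are values listed at 0.

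Counted over the group, 0 of the 6 tested members passed an adjusted p under 0.05 by limma with Benjamini-Hochberg adjustment, where 0% of the 1534 tested genes did, and 0 passed an unadjusted p under 0.05, where 4.5% of them did (27 higher and 42 lower in TNFdARE mice). That balance turned over with quantile normalization (34 higher and 21 lower). It did so as well when TNFdARE mouse 1 (35 higher, 23 lower), TNFdARE mouse 4 (25 higher, 19 lower) or both (45 higher, 11 lower) were left out. The groups did not overlap for 0 of the 8 members, against 3.32% of the tested genes. The point estimates of all 6 tested members were below 0, with a median of -0.64, but the same held for 63.0% of all tested genes, whose median was -0.30. With quantile normalization the median of all tested genes was -0.06, and Stim1 and Atp2a3 then had estimates of 0.24 and 0.01.

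**Figure D4:**
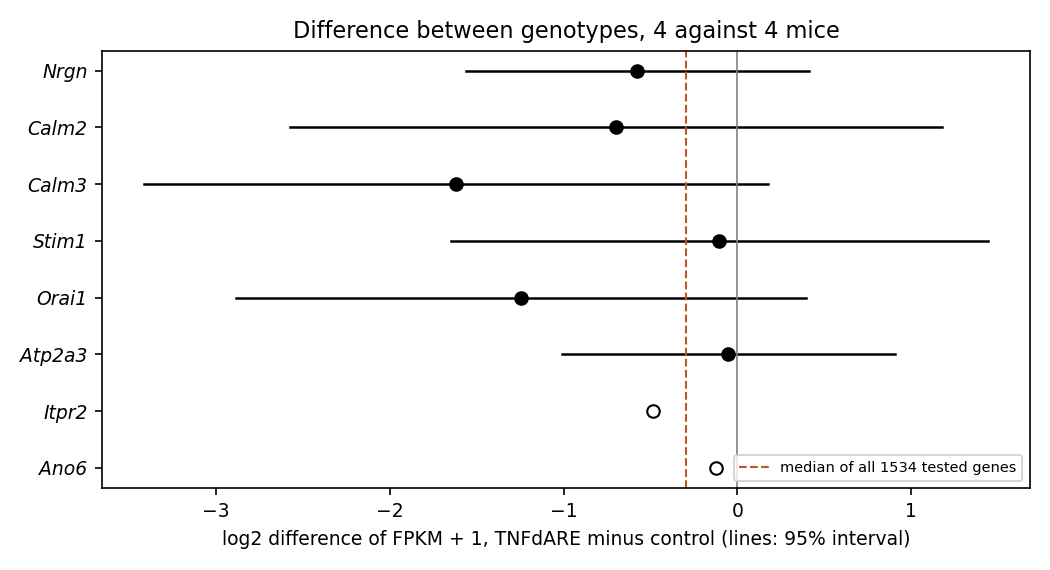
Points give the difference of mean log2(FPKM + 1), TNFdARE minus control, and lines its 95% interval from limma (n = 4 per group). Open points are Itpr2 and Ano6, which were below the filter of the main fit. All intervals include 0, and the dashed line marks the median of all tested genes, -0.30.

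Whether the genotype difference depended on sex was examined with an interaction term. No member reached an unadjusted p under 0.05 by limma (0 of 6 tested, against 3.52% of the 1534 tested genes). Calm2 came closest: it was 9.95 and 2.19 FPKM in control females and 0.519 and 0 FPKM in TNFdARE females, and 3.29 and 2.26 FPKM in control males against 12.9 and 2.35 FPKM in TNFdARE males. The difference in males exceeded that in females by 3.13 on the log2 scale (SE 1.63; limma, unadjusted p = 0.075, Benjamini-Hochberg adjusted p = 0.92). The mean log2 value was 2.56 in control and 0.30 in TNFdARE females, and 1.90 in control and 2.77 in TNFdARE males. The female difference was therefore the larger part. With 2 mice of each sex and genotype, it rested largely on control mouse 1 and on TNFdARE mouse 4, where Calm2 was listed at 0. The value in males rested largely on TNFdARE mouse 1.

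Ordered by mean level over the 8 mice, the genes ran Nrgn, Atp2a3, Calm3, Calm2, Stim1, Orai1, Itpr2 and Ano6. Neighbours were compared within each mouse by an exact sign-flip permutation test on log2(FPKM + 1), adjusted over the 7 pairs. Nrgn was above Atp2a3 in 8 of 8 mice, by 2.36 ± 0.62 (SD, n = 8; exact test, adjusted p = 0.027). Atp2a3 was above Calm3 in 8 of 8 mice, by 3.02 ± 1.52 (SD, n = 8; exact test, adjusted p = 0.027). Itpr2 was above Ano6 in 6 mice and equal to it at 0 in the other 2 (exact test, adjusted p = 0.073). The other 4 neighbouring pairs had adjusted p values of 0.31 to 0.52 in the exact test, and their order changed from mouse to mouse.

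The genes whose pattern over the 8 mice was most like that of a member were found by the root mean square (RMS) difference of log2(FPKM + 1), each gene centred on its own mean. These likenesses are descriptions over 8 mice that share the same libraries and depth. For Atp2a3 the closest of 948 genes was Gp5, a glycoprotein of the von Willebrand factor receptor complex (RMS 0.16), and Gas2l1 was also near (0.22). For Nrgn they were Nlrx1 (0.14), Ctsd, which encodes the lysosomal protease cathepsin D (0.17), and Gm15989 (0.22). For Itpr2, among 949 genes, they were the tropomyosin gene Tpm4 (0.19), Gm17035 and Itga2b, which encodes the platelet integrin subunit αIIb (both 0.20). Adding 1 to each value shrinks differences between low values, so genes of very different level can look alike. Itpr2 ran from 0 to 1.47 FPKM, Tpm4 from 21.4 to 50.6 FPKM and Gm17035 from 516 to 1154 FPKM. Nlrx1 ran from 0 to 3.84 FPKM, whereas Nrgn ran from 76.2 to 428 FPKM. Stim1 was nearest to RP24-159H19.2, the phosphatase gene Ptprj (both 0.22) and an entry named after a genomic clone (0.26). Calm2 was nearest to Rnf187, Stard5 (both 0.44) and Myct1 (0.45), and Calm3 to the tubulin gene Tuba4a (0.55), Sepw1 (0.60) and Mlf2 (0.61). The RMS difference was not scaled to the spread of a gene, so its size cannot be compared between members. That spread, as the SD over the 8 mice, was 1.28 for Calm2 and 1.47 for Calm3, against 0.34 for Atp2a3. Orai1 and Ano6, above 0 in 5 libraries each, were left out of this search.

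The rest of the calcium and calmodulin pathway was described through 8 lists, which hold 189 further genes of the table. Of these, 94 were listed at 0 in all 8 libraries and 41 were high enough to be tested. A single gene, Cracr2b, had an unadjusted p under 0.05 (2.44% of the 41, against 4.5% of all tested genes), and 0 passed the limma test after Benjamini-Hochberg adjustment. By point estimate 11 were higher and 30 lower in TNFdARE mice, with a median of -0.36.

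In the list for store-operated entry, Cracr2b, a calcium-binding regulator of the channel, was listed at 0 in all 4 controls and in TNFdARE mouse 1 and was read at 5.95, 1.92 and 20.3 FPKM in TNFdARE mice 2 to 4. Its unadjusted limma p was 0.028, its Benjamini-Hochberg adjusted p 0.86 and its exact permutation p 0.14. The noncoding Gm10575 overlaps it on the other strand, with 100% identity over 463 bases. Gm10575 was above 0 in 7 libraries (mean 3.34 FPKM), and its reads cannot be told apart from those of Cracr2b without strand. Saraf, which shuts the channel off, reached 11.7 FPKM in control mouse 1, was listed at 0 in control mouse 3 and TNFdARE mouse 1 and lay between 0.464 and 4.19 FPKM elsewhere.

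In the list of calmodulin-dependent enzymes and proteins with an IQ motif, Myh9, the nonmuscle myosin heavy chain of platelets, was the highest at 10.6 to 20.6 FPKM in controls and 5.39 to 15.9 FPKM in TNFdARE mice. Mylk, the calmodulin-dependent kinase that acts on myosin light chains, was read at 3.56 to 4.19 FPKM in controls and at 0.639, 3.75, 2.75 and 4.33 FPKM in TNFdARE mice. The controls were close together and only TNFdARE mouse 1 stood far below them. Itpkb, a calmodulin-activated kinase of inositol trisphosphate, was read at 1.81 to 3.62 FPKM in controls and 2.49 to 6.47 FPKM in TNFdARE mice.

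Near the store and its receptors, Mrvi1, a partner of the inositol trisphosphate receptor, was read at 1.25 to 10.9 FPKM in controls and 0 to 7.08 FPKM in TNFdARE mice. Plcg1, a phospholipase C, was above 0 in 2 libraries, with 14.3 FPKM in control mouse 2 and 0.775 FPKM in TNFdARE mouse 2. For 2 of the 41 tested pathway genes (4.88%, against 3.32% of all tested genes) the groups did not overlap. Inpp5a, a phosphatase that removes inositol trisphosphate, was one of them, at 1.49 to 3.13 FPKM in controls and 0 to 1.45 FPKM in TNFdARE mice (exact permutation p = 0.029, the smallest possible; limma, Benjamini-Hochberg adjusted p = 0.86). Slc24a3, a calcium exchanger, was the other, at 5.10 to 7.29 FPKM in controls and 0 to 4.73 FPKM in TNFdARE mice (exact permutation p = 0.029; limma, Benjamini-Hochberg adjusted p = 0.86). Tmbim6, a calcium leak protein of the endoplasmic reticulum, overlapped at 1.90 to 9.54 and 3.62 to 16.9 FPKM.

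Of the calcium channels, P2rx1, the ATP-gated channel of platelets, was read at 5.41 to 13.0 FPKM in controls and, in TNFdARE mice 1 to 4, at 0, 11.9, 5.22 and 13.0 FPKM. Smdt1, a subunit of the mitochondrial calcium uniporter, was read at 0 to 20.1 FPKM in controls and at 0 to 6.08 FPKM in TNFdARE mice. The groups overlapped for both. Atp8a1, a flippase that returns phosphatidylserine to the inner leaflet, was the only tested gene of the scramblase and flippase list, at 0.184 to 1.99 FPKM in controls and 0.424 to 3.40 FPKM in TNFdARE mice apart from 25.6 FPKM in TNFdARE mouse 4.

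Among other calcium sensors and effectors, Rasgrp2, the calcium-regulated activator of Rap1, was read at 174, 53.6, 26.4 and 76.8 FPKM in control mice 1 to 4 and at 0, 39.8, 71.9 and 57.0 FPKM in TNFdARE mice 1 to 4. Its highest value was in control mouse 1, and it was listed at 0 in TNFdARE mouse 1, the library with the fewest genes. S100a10 (36.0 to 86.7 against 46.6 to 95.1 FPKM) and the actin-severing gelsolin gene Gsn (15.2 to 35.9 against 15.7 to 35.9 FPKM) overlapped almost fully between controls and TNFdARE mice.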

How the data were processed

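RNA of washed platelets was sequenced on an Illumina instrument with reads of 150 bases. Per the labels and the study's methods, the authors aligned reads with GSNAP and quantified them with Cufflinks on mm10 (both Cufflinks and mm10 are named in the submitters' processing notes), and they deposited FPKM values per gene. The unit is not in the file header and was inferred from Cufflinks and the values. Strand, annotation and the handling of reads that map to several places are not given in the sources used here. Low values ran down to 5.14e-215, so whole reads could not be recovered, depth is unknown and no counting interval is given. AY036118 took up to 67.7% of the summed FPKM, but the sum without it lay between 30550 and 41611 in all 8 libraries, and rescaling to that sum moved Nrgn only from -0.57 to -0.62.

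Values were analysed as log2(FPKM + 1) for the 1534 genes with a mean of at least 1 FPKM, with limma 3.58.1 (R 4.3.3; trend) and Benjamini-Hochberg adjustment, all 8 mice, no covariate. Fold changes on this scale understate the change of low genes. Single genes were also compared by two-sided exact permutation (smallest p 0.029) and neighbouring levels by exact sign flips. Gene positions and sequences came from GENCODE release 21 (GRCm38), in which 42470 of the 43548 identifiers were found, and similar transcripts from BLAST 2.17.0 (at least 95% identity over 150 bases). List genes were matched by symbol, or by identifier for 3 renamed genes. The table holds 165 entries that repeat an earlier symbol, and these were kept in the fit and in the library sums. For a list gene with more than 1 entry, the entry with the higher mean was used. The model was tested on simulated data with the spread of the TNFdARE against control comparison. It recovered 62.5% of 200 genes changed by 3 on the log2 scale among 1534, with 6 false calls. Measured log2(FPKM + 1) cannot lie below 0. Calm2, Stim1 and Orai1 had control means of 2.2, 1.6 and 1.7 on this scale, so a fall of 3 cannot occur in them. Recovery with this floor at 0 was not tested.

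The members and lists were chosen with earlier results of these data known. The named genes were the 8 members, pathway genes with an unadjusted p under 0.05, the 3 tested genes with the highest mean of each pathway list, and the 3 genes most like each member above 0 in at least 6 mice, and some genes the rule names are not reported here. Pseudocounts, filters, scalings, array weights, sex, replicate numbers and single mice were varied. The labels name each sample a mouse of its own, so p values measure the spread between mice.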

Additional observations from a re-analysis of the deposited data

Results flagged for a closer look

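In 4 of 16 groups of 4 mice examined (the 8 genes in either genotype) a single mouse lay far from the other 3, measured as its gap to the nearest mouse over the whole range. Chance would give about 0.8 at 1 in 20 for normally distributed values, but 23.8% of the groups of all tested genes were as far on the FPKM scale, so the members' share (4 of 16) is near the background. Calm2 in control mouse 1 (9.95 FPKM) stood above the other controls with a gap of 0.858 of the range. Nrgn in control mouse 3 (428 FPKM) had a gap of 0.869. Itpr2 in control mouse 2 (1.47 FPKM) had a gap of 0.926. Ano6 in TNFdARE mouse 3 (0.566 FPKM), the library with the most genes above 0, had a gap of 0.927.
On the log2(FPKM + 1) scale 5 of the 16 member groups, and 19.1% of those of all tested genes, were as far, and the gap of Calm2 in control mouse 1 was then 0.759.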

How the results depend on the processing

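Over 20 alternatives, Calm2, Calm3, Nrgn, Orai1 and Itpr2 kept a point estimate below 0 in TNFdARE mice, and 145 of all 160 estimates were below 0. Other filters, limma without a trend, sex as a covariate and the replicate block cannot move these estimates and left them unchanged. Signs from those fits are therefore no check. With the pseudocount alone the sizes for these genes moved by over 1.5 times, for all but Nrgn. With 0.1 and with 5, Calm2 was -1.64 and -0.21, Calm3 -2.46 and -0.97, Orai1 -2.34 and -0.50, and Itpr2 -1.68 and -0.13. No alternative gave a member, or any other tested gene, an adjusted p under 0.05. Leaving out 1 mouse at a time gave 0 to 1 members at an unadjusted p under 0.05 (Orai1 without control mouse 1, Calm3 without control mouse 2) and 0 to 1 members without overlap. Over all tested genes, 46 of 1516 had an unadjusted limma p under 0.05 without control mouse 1, and 48 of 1529 without control mouse 2. The share of all genes without overlap was not counted with a mouse left out. Stim1 changed sign with a pseudocount of 5 (0.0079), quantile normalization (0.24) and array weights (0.24), and Atp2a3 with quantile normalization (0.0069), median-of-ratios scaling (0.011) and array weights (0.21); the cause was not tested. Without 1 mouse, Stim1 ranged from -0.32 to 0.41, Atp2a3 from -0.18 to 0.10 and Ano6 from -0.28 to 0.018. With both TNFdARE libraries with the fewest genes left out, chosen after seeing the data, Stim1 was 0.41, Atp2a3 0.23 and Ano6 0.056. Array weights also brought Nrgn to -0.26, Calm3 to -0.96, Itpr2 to -0.11 and Ano6 to -0.0046, and called 111 genes at an unadjusted p under 0.05 (74 higher) against 69. The 2 neighbouring pairs that passed in the order of levels fell to 0 with 7 or 6 mice, where the smallest adjusted p that 2 of 7 pairs can reach is 0.055 or 0.11. The replicate numbers do not pair the mice (correlations of deviations -0.07 to 0.06), pairs whose library names share a number across genotypes gave 0.06 (control mouse 1 with TNFdARE mouse 1) and 0.04 (control mouse 4 with TNFdARE mouse 3) within a range of -0.11 to 0.10 over all pairs, and the fit with a replicate block called 64 genes and 0 members at an unadjusted p under 0.05, with Calm3 at -1.62. Depth is unknown, and the 6 low members were each listed at 0 in 1 to 3 libraries.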
